A study of Homo sapiens with 6 samples.

Results

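Long single-block exon peaks are m6A-enriched regions that the authors' annotation placed in an exon of the same gene the peak is assigned to, and that run for at least 400 bases without crossing a splice junction. They were selected from both peak tables of the study by annotation, gene identity, block number and block length, and neither enrichment nor change entered the choice. Of 62617 regions listed over both tables, 3524 qualified. The list of peaks after the combined treatment held 2432 of them among 42634 peaks (5.7%), in 1958 named genes, and the table of differences held 1092 among 19983 (5.46%), in 940 named genes. The 3524 are not all distinct places, since 794 of the 1092 (72.7%) overlapped a qualifying region of the peak list by at least 1 base. The median length of qualifying regions was 599 bases in the peak list (quartiles 480 and 809, range 402 to 3594) and 686 bases in the table of differences (range 402 to 4256). The annotation gives peaks in the coding part of an exon and peaks in non-coding RNA the same class, and 3' UTR and 5' UTR peaks classes of their own.

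The study used Kasumi-1, a leukaemia line grown from human myeloblasts that carry the RUNX1-RUNX1T1 fusion, with its genotype labelled WT. Co_Echi cells received 100 uM CoCl2, a hypoxia mimic that stabilises HIF-1, together with 10 nM echinomycin, which keeps HIF-1 off DNA, for 24 hours. Poly(A) RNA from 3 biological replicates was fragmented and sequenced before (input) and after (IP) pulldown with an m6A antibody, giving 3 IP and 3 input libraries. The reference of the differential table is CoCl2 without echinomycin, by the table's name, and libraries of that group were not analysed here. All results concern cells of 1 line, both groups of the comparison received CoCl2, and poly(A) selection leaves out RNAs without a tail. Each peak carries 1 value of the authors with no replicate values, so no spread between replicates and no test across samples could be had for any peak. Depth is unknown.

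N6-methyladenosine (m6A) is set on nascent RNA by the METTL3-METTL14 methyltransferase complex at short motifs, of which GGACU is the best known. Exon junction complexes keep the methyltransferase away from the neighbourhood of splice sites, so the mark is known to gather in long internal exons and in last exons. Reader proteins of the YTH and IGF2BP families then act on the decay, translation and splicing of the marked RNA.

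Genes with a long single-block peak fell into classes by the reference table and the file's own gene descriptions, which together classed 96.3% of the 2432 peaks. Protein-coding genes held 985 peaks (40.5%), lncRNA genes 366 (15.0%), pseudogenes 474 (19.5%), and 516 (21.2%) lay in transcripts that the descriptions name only as such, for example sense intronic or newly described transcripts. Protein-coding genes held 48.4% of the 6076 shorter single-block exon peaks and 58.1% of the 3212 exon peaks that cross junctions.

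Sequence could be shown only for stretches that RefSeq's start-site windows (GRCh38.p14, 300 bases around each gene start) or hairpins share with a member. The position of a gene in that build overlapped its position in the files for 1337 of 1347 member symbols (99.3%), on which basis coordinates are read as that build. The lines below give, 5' to 3' on the strand of the member's gene, the start of CRNDE and of CAPN10-DT, whose peaks were among the highest of the differential table in expressed genes, of LINC01003, enriched 17.7-fold, and of NORAD, first in RNA level. The GABPB1-IT1 line, from a peak that was lower, is not that gene's own start: it is the start-site window of GABPB1-AS1 on the opposite strand, which lies within the GABPB1-IT1 member, given as its reverse complement. GGACT, the DNA spelling of the motif above, stands in capitals where present.
CRNDE, chr16:54928837-54929136, minus strand: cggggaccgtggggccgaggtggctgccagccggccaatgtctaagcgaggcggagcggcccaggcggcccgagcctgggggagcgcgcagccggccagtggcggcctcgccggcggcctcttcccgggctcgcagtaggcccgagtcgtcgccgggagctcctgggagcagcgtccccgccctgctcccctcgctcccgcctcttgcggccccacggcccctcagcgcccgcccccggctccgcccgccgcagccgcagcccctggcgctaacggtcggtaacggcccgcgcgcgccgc
CAPN10-DT, chr2:240586267-240586566, minus strand: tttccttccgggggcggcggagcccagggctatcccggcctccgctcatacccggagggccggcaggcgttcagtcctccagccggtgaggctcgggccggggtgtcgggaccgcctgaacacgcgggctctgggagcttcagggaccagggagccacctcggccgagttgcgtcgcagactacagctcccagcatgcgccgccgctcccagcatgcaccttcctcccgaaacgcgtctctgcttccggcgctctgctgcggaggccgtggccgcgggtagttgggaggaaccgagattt
GABPB1-IT1, chr15:50353924-50354223, minus strand: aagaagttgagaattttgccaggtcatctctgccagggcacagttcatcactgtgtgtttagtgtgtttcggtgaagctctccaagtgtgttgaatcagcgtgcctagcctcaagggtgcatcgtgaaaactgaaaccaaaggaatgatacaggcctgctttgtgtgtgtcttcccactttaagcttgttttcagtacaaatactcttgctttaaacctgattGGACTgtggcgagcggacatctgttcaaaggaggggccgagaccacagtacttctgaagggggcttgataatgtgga
LINC01003, chr7:152463874-152464173, plus strand: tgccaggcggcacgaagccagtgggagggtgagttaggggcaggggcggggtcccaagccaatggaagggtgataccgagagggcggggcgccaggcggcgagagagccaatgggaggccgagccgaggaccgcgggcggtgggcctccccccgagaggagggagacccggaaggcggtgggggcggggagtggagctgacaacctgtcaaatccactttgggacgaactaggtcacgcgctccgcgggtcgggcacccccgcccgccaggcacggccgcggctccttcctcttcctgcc
NORAD, chr20:36050911-36051018, minus strand: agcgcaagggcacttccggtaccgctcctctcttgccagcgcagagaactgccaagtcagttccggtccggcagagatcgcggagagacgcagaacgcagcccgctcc
Only the GABPB1-IT1 stretch holds GGACT on the gene's strand, at 1 place, and CAPN10-DT holds it at 1 place on the opposite strand. Among all 35116 windows of 300 bases, 25.3% hold GGACT on their own strand and 25.3% on the other. Of the windows lying whole within a peak of the peak list, 9 of 25 held it on the gene's strand (36.0%) and 8 of 25 on the opposite strand (32.0%), and among differences 7 of 14 (50.0%) and 6 of 14 (42.9%). The windows lie at a gene's start, not at the summit of a peak, and no match says only that these letters are not in this window.

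A differential member on AC004687, a single-exon transcript (chr17:58330884-58332508, minus strand, 1625 bases), encloses the hairpin of miR-142, a microRNA known as specific to blood cells. Both mature arms are shown with their seeds, bases 2 to 8, in capitals, below the whole hairpin.
MIR142 hairpin, chr17:58331232-58331318, minus strand: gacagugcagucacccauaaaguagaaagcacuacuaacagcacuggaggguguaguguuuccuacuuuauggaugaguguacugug
miR-142-5p: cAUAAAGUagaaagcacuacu
miR-142-3p: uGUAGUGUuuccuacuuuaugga
The seeds of the arms differ, and the hairpin has no GGACU. The AC004687 peak was lower in Co_Echi than in CoCl2 cells, at a log2 fold change of -0.242 and a log10 FDR of -8.4 in the table of differences, the authors' deposited table. Input RNA of AC004687 measured 16.7, 19 and 14.4 FPKM in the 3 Co_Echi input libraries. The value belongs to the long poly(A) RNA around the hairpin, and mature microRNA was not measured. MIR4453HG, the host of miR-4453, also had a member in each table (chr4:152536264-152536744, 481 bases, 6.99-fold enriched), and its hairpin does hold the motif.
MIR4453 hairpin, chr4:152536428-152536516, plus strand: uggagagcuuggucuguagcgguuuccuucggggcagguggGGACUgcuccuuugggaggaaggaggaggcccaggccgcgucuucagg
MIR4453HG was lower as well, at a log2 fold change of -0.611 in the authors' deposited table, in a gene of 0.826, 1.22 and 0.895 FPKM.

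Place was read on the transcript that the annotation names for each peak, which need not be the gene's main transcript. MKI67 members were read in exon 12 of 14 and exon 7 of 15, SPTAN1 in exon 4 of 4 and OAZ1 in exon 1 of 1. By this reading 724 of the 2432 peaks (29.8%, exact Clopper-Pearson 95% interval 28.0 to 31.6) lay in the only exon of a transcript annotated with 1 exon. A first exon held 287 (11.8%, 10.5 to 13.1), an internal exon 593 (24.4%, 22.7 to 26.1) and a last exon 828 (34.0%, 32.2 to 36.0). The intervals here and below cover counting error only. Gene class and place went together. Protein-coding peaks lay in internal exons in 492 of 985 cases (49.9%), whereas 53.0% of lncRNA peaks lay in last exons and 63.3% of pseudogene peaks in an only exon. Shorter single-block exon peaks were internal in 24.6% and in an only exon in 23.0%, and junction-crossing peaks were internal in 63.4%. Internal protein-coding members came from transcripts of 14 exons at the median, and 66 of the 492 (13.4%) sat in the next-to-last exon.

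In unspliced transcripts the peak covered a median of 55.1% of the transcript (quartiles 29.7 and 94.0, n = 670 with a known extent). Among the 308 that covered less than 50% of their transcript, the first of 5 equal parts from the 5' end held 86 peak centres, the next part held 79, and the last part at the 3' end held 46. Members in last exons of protein-coding genes ended a median of 1699 bases before the transcript's end, and 26 of 225 (11.6%) came within 100 bases of it. In last exons of other genes the median was 328 bases, and 154 of 384 (40.1%) came within 100 bases.

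Enrichment of IP over input, the authors' linear ratio for each peak, had a median of 7.14 in long single-block exon peaks (quartiles 4.58 and 10.7), against 3.73 in shorter single-block exon peaks and 4.53 over all peaks. Length went with enrichment in every region class: peaks of at least 400 bases had medians of 6.52 in a single block of the 3' UTR, 6.68 in a single block of the 5' UTR and 6.44 in exon peaks that cross junctions. Between 400 and 599 bases the medians were 6.75 for members, 5.2 for the 3' UTR and 5.28 for the 5' UTR, and between 1000 and 1499 bases 7.45, 7.52 and 8.43. Just inside the limit, peaks of 400 to 449 bases had a median of 6.52 (n = 365), against 6.05 at 350 to 399 bases (n = 556).

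Among the members, peaks in an only exon had the highest median enrichment, at 8.38, followed by last exons at 7.45, first exons at 7.13 and internal exons at 5.15. RNA level ran the other way. The median was 9.31 in genes under 0.1 FPKM (n = 402), 8.85 from 0.1 to 1 FPKM, 5.44 from 1 to 5 FPKM, 4.51 from 5 to 20 FPKM and 4.18 in genes of 20 FPKM or more (n = 69). Across the 2371 members with an FPKM the rank correlation of enrichment with mean input FPKM was -0.5, and with length it was 0.11 across all 2432. These are across peaks of the same libraries, which are not replicates. In genes under 1 FPKM or with no listed FPKM, 50.4% of enrichments below 10 fell within 0.01 of a whole multiple of 0.931, against 7.84% in genes of 1 FPKM or more. The number of reads behind a peak is not listed, and the part of few reads in the high medians of weakly expressed genes was not tested.

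**Figure D1:**
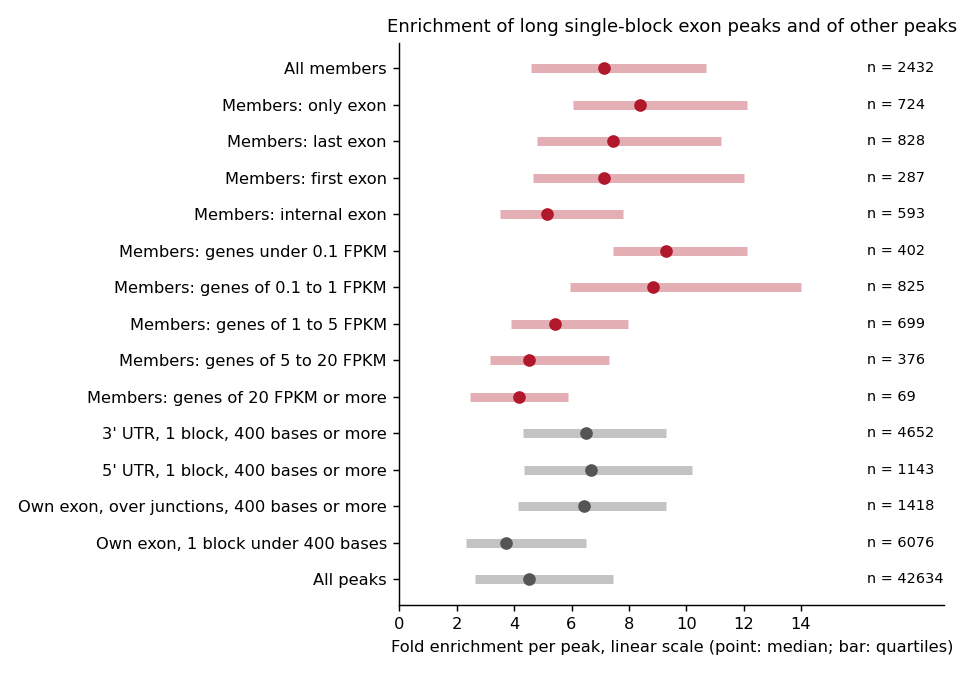
Median (point) and quartiles (bar) of the authors' fold enrichment per peak, on a linear axis, for long single-block exon peaks in red, split by exon place and by input FPKM of the gene, and for other peak sets in grey below. The members' median of 7.14 stands above that of all peaks, 4.53, and the members' medians descend to 4.18 in genes of 20 FPKM or more.

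In genes of at least 5 FPKM, 7.83% of enrichments below 10 fell within 0.01 of a multiple of 0.931. Values of 10 or more, as named here, were not checked for such steps. The highest enrichment in these genes was 101-fold over the first exon of MYO15B, an unconventional myosin gene (chr17:75588058-75590248, 2191 bases). NEAT1, the lncRNA that builds nuclear paraspeckles, followed at 55.9-fold over 2488 bases from its 5' end (chr11:65422798-65425285), listed again with nearly the same limits at 51.8-fold. Both stood apart from the next expressed genes. AC097382 had 30.7-fold enrichment over 1111 bases, and SRRM2, a large serine- and arginine-rich protein of nuclear speckles, had 22.8-fold over 601 bases of an internal exon. AC092368 also reached 22.8-fold and LINC01410 20.2-fold. PRRC2A, itself an m6A reader, was enriched 19.3-fold over 870 bases of exon 16 of 31 (chr6:31631281-31632150). PRR12, a proline-rich nuclear protein, followed at 18.8, AFF1, a subunit of the super elongation complex and a fusion partner of KMT2A in leukaemia, at 18.6, and LINC01003, the gene printed above, at 17.7. MYO18A, a myosin, had 15.8, but its log10 FDR of -3.17 was far weaker than that of AFF1, at -247. Below 5 FPKM, and singled out after the values were seen, LINC02076 was listed at 292-fold in a gene of 0.486, 0.269 and 0.324 FPKM, and LINC02878 at 212-fold in a gene of 2.77, 3.51 and 2.87 FPKM.

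Member peaks of the most abundant RNAs lay on both sides of the members' median enrichment of 7.14. POLR2A, TUBB4B and OAZ1 lay below it. NORAD and SNHG29 lay above it, and above the upper quartile of 5.88 for members in genes of 20 FPKM or more. NORAD, a cytoplasmic lncRNA that binds Pumilio proteins, had 208, 219 and 215 FPKM in the 3 Co_Echi input libraries and 9-fold enrichment over 1403 bases of its only exon. POLR2A, the largest subunit of RNA polymerase II, had 131, 128 and 129 FPKM and 1.75-fold. TUBB4B, a beta-tubulin, measured 117 FPKM in each library and 2.31-fold. SNHG29, a snoRNA host gene, had 13.2-fold over 2273 bases with 100, 104 and 106 FPKM. OAZ1, the antizyme that curbs polyamine synthesis, had 4.19-fold with 72.2, 76.7 and 73.8 FPKM. The 3 libraries of each gene lay close together beside the distances between genes. FPKM is a bulk value, in which fewer cells carrying an RNA and less RNA per cell cannot be told apart.

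**Figure D2:**
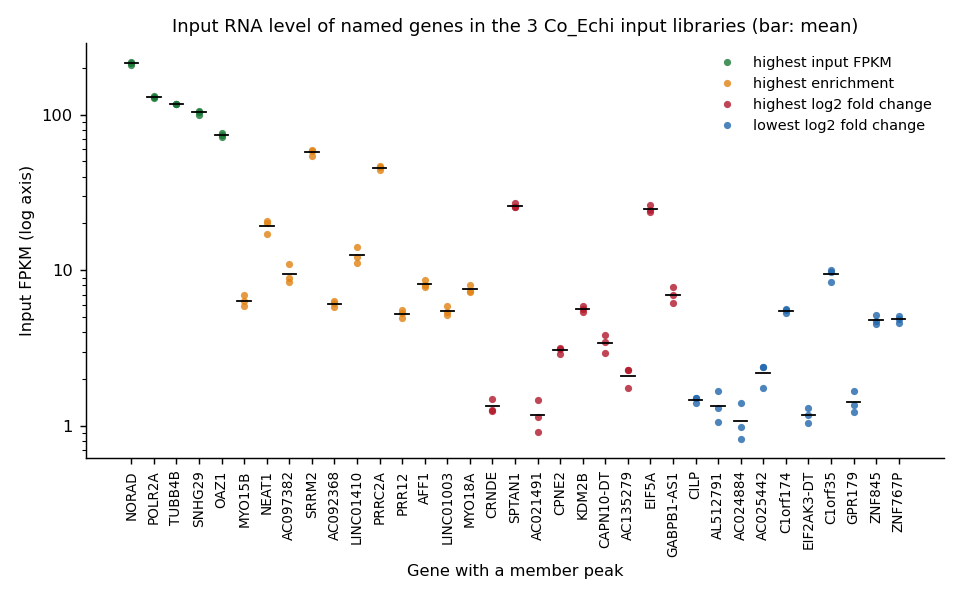
Input FPKM (log axis) of the member genes chosen for RNA level (green), enrichment (orange), highest log2 fold change (red) and lowest log2 fold change (blue), with 1 point for each of the 3 Co_Echi input libraries and a bar at their mean. NORAD is highest at 208 to 219 FPKM, and genes at both ends of the differential table reach down to about the limit of 1 FPKM.

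Genes with a long single-block peak were weakly expressed as a set: their median FPKM was 0.859, 0.981 and 0.832 in the 3 input libraries, against 2.16, 2.24 and 2.12 for genes with any listed peak. A mean of at least 1 FPKM was reached by 921 of 1926 (47.8%), against 61.7% of all genes with a peak. Protein-coding member genes had a median of 2.22 FPKM and the other member genes 0.517. The myeloid label was checked against its markers, and 8 of 8 lineage genes reached 1 FPKM, with KIT at 40.4 ± 1.87, MPO at 56.2 ± 2.74 and RUNX1T1 at 4.21 ± 0.25 FPKM (SD, n = 3). Of 15 markers of other cell types, 12 were listed and 8 of these lay under 1 FPKM, while CD3D (32.1), EPCAM (8.79), CD79A (5.03) and ITGA2B (1.48) did not. No marker of another cell type and no haematopoietic transcription factor gene on the list of 34 had a long single-block peak. Most genes with a listed peak had none either: 1926 of 16297 with an FPKM had one.

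The longest blocks traced single giant exons. HELZ2, a helicase-like coactivator of PPAR receptors, had 3594 bases in exon 3 of 14 (chr20:63562526-63566119) at 9.63-fold, and AHDC1, an AT-hook protein, 3176 bases in exon 5 of 6 at 10.8-fold. C22orf46 and MALAT1, a lncRNA of nuclear speckles, each had 2903 bases, at 5.27- and 5.15-fold. TSC22D1 (2663 bases, 6-fold), CRYBG3 (2551 bases, 4.93-fold) and ZNF37BP (2550 bases, 14.2-fold) came next. NEAT1, at 2514 bases and 51.8-fold, was far above these in enrichment. At the other end, AL136126 with 402 bases had 8.54-fold enrichment and AC026979 with 403 bases 4.4-fold. AC117498 with 398 bases, just outside, had 5.12-fold.

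Most genes had 1 member, 256 of 1958 had 2, and 80 had 3 or more. AHNAK, a giant scaffold protein of the cell membrane encoded mostly by its last exon, had 10, which together covered 9786 bases with enrichments of 1.76 to 6.23. LINC00662 and ZBED3-AS1 had 7 each, at medians of 5.59 and 7.55, but at 0.266 and 0.713 FPKM. LINC01128 (median 4.58), PLEC, the cytoskeletal linker plectin (3.02), and ZNF469 (6.22) had 6. MKI67, the Ki-67 protein that coats mitotic chromosomes, had 5 at a median of 2.36, and HCG18, a lncRNA of the major histocompatibility region, 5 at 3.6. The members of a gene share its RNA and are no independent replicates of it.

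Of the 1092 long single-block peaks in the authors' deposited table of differences, 641 (58.7%) were lower and 124 (11.4%) higher in Co_Echi than in CoCl2 cells at an authors' FDR under 0.05. Over all 19983 peaks tested, 45.8% were lower and 23.1% higher. The share that changed at all was 765 of 1092 (70.1%), against 68.9% over all peaks, 87.7% of other peaks of at least 400 exonic bases and 49.4% of all peaks under 400 bases. At matched length fewer members than single-block 3' UTR peaks changed, 59.3% against 76.8% at 400 to 599 bases and 72.5% against 86.1% at 600 to 999. Within the members, the share that changed went with RNA level. In genes of 1 FPKM or more, 79.2% and 81.0% of members changed in these 2 length classes. In genes under 1 FPKM or with no listed FPKM, 37.9% and 60.0% did. The 3' UTR peaks were not split by RNA level, so the gap between them and the members was not compared at matched RNA level. Among changed peaks 83.8% were lower (exact 95% interval 81.0 to 86.3), against 66.4% over all changed peaks (65.7 to 67.2) and 44.0% of changed single-block exon peaks under 400 bases (40.0 to 48.0). In the members the log2 fold change of the authors' deposited table had a median of -0.67, against -0.43 over all peaks. Just inside the length limit, at 400 to 449 bases, it was -0.66 (n = 132), against -0.58 at 350 to 399 bases (n = 200). At a 2-fold limit 258 members were lower, or 23.6% against 11.2% of all peaks, and 33 were higher, or 3.02% against 6.01%. The table's name gives the direction, and members with lower values less often met a listed Co_Echi peak: 55 of 74 below a log2 fold change of -2 overlapped one by at least 1 base, against all 237 above 0. The FDR is the authors', and whether it reflects replicate spread is not stated in the labels or headers.

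The share of lower peaks climbed with length in each region class. Other peaks of at least 400 exonic bases were lower in 80.7% of changed cases (79.8 to 81.5), and all peaks under 400 bases in 37.4% (36.0 to 38.9), by the authors' deposited table. Single-block exon peaks ran from 34.9% lower at 100 to 199 bases, through 74.3% at 400 to 599, 85.5% at 600 to 999 and 90.6% at 1000 to 1499, to 96.3% at 1500 bases or more. Single-block 3' UTR peaks in the same length classes had 37.6%, 68.1%, 85.7%, 94.2% and 96.8%. Their intervals overlap the members' in each of these classes. At 400 to 599 bases junction-crossing exon peaks had 55.6% (48.0 to 63.0) and 5' UTR peaks 51.8% (43.9 to 59.7), both below the members' 74.3% (68.5 to 79.6). The rank correlation of the signed log2 fold change with length was 0.04 across the 1092 members and -0.28 across all 19983 peaks. Changes beyond 2-fold thinned out with length, with 108 lower and 21 higher of 427 members at 400 to 599 bases and 10 lower and 0 higher of 83 at 1500 bases or more. The part of the authors' peak calling in the link between length and direction was not tested.

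**Figure D3:**
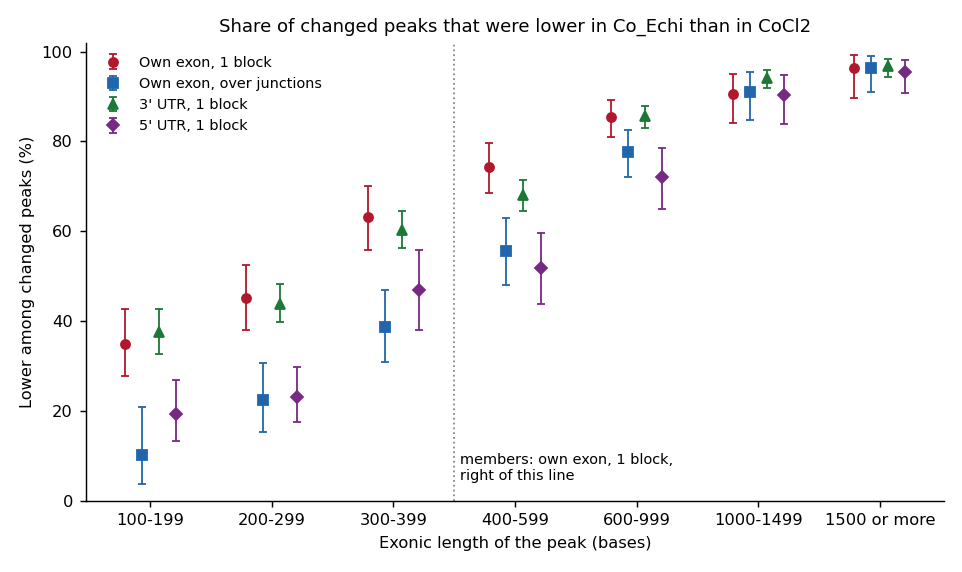
Percent of changed peaks (authors' FDR under 0.05) that were lower in Co_Echi than in CoCl2 cells, by exonic length class from 100 bases up, for exon peaks in 1 block (red circles; members lie right of the dotted line), exon peaks over junctions, and single-block 3' UTR and 5' UTR peaks, with exact 95% intervals. All 4 classes climb with length, and at 1500 bases or more each lies above 95%.

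**Figure D4:**
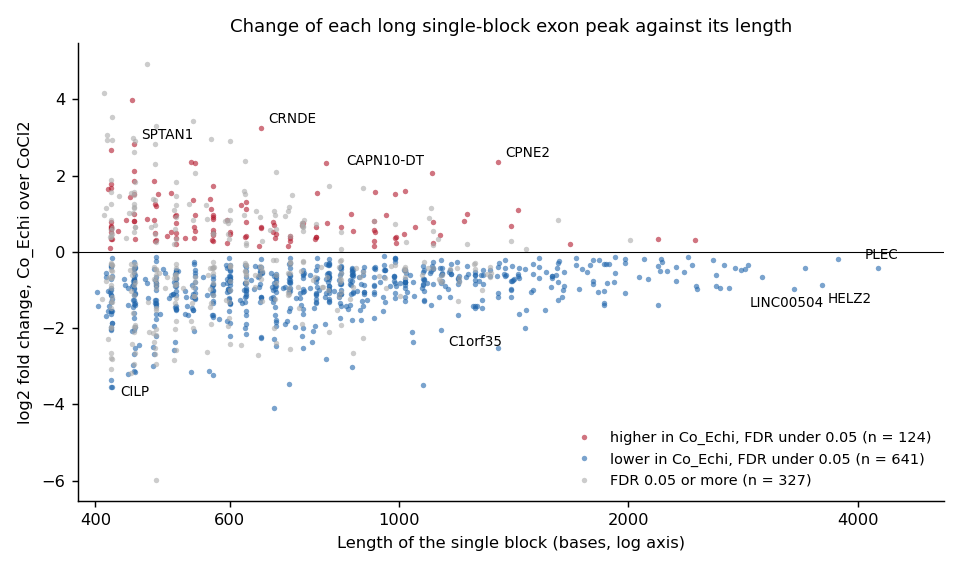
log2 fold change of Co_Echi over CoCl2 in the authors' deposited table against block length (log axis) for the 1092 long single-block exon peaks, with 124 higher peaks in red, 641 lower peaks in blue and 327 peaks at an FDR of 0.05 or more in grey. Values spread widely in both directions at 400 to 600 bases, and the 8 longest blocks lie between -0.97 and -0.19.

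By place in the annotated transcript, changed members in last exons were lower in 92.0% of cases (87.9 to 95.0), in internal exons in 81.0% (75.7 to 85.6), in only exons in 80.4% (74.0 to 85.9) and in first exons in 74.3% (62.8 to 83.8). By gene class the shares lay close together, at 82.1% in protein-coding genes, 88.5% in lncRNA genes and 83.8% in pseudogenes. By RNA level they descended, at 93.5% in genes under 0.1 FPKM, 90.4% from 0.1 to 1, 87.5% from 1 to 5, 77.6% from 5 to 20 and 60.5% (44.4 to 75.0, n = 43) at 20 FPKM or more. Medians of the log2 fold change moved likewise in the authors' deposited table, at -1.2 in the lowest class and -0.36 in the highest. RNA level was known only for Co_Echi cells. Of the 37 members with no listed peak in Co_Echi cells, 19 changed and all 19 were lower, at a median log2 fold change of -2.02 over the 37. Lacking a listed Co_Echi peak selects for low Co_Echi signal, so this direction was nearly fixed by the choice and is no separate result.

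The highest values in expressed genes of the authors' deposited table were 3.25 for CRNDE, 2.82 for SPTAN1 and 2.68 for AC021491. CRNDE is a lncRNA often raised in tumours, and its peak of 660 bases in exon 1 (chr16:54928530-54929189) was also 18.2-fold enriched over input. Its input level was low, at 1.26, 1.5 and 1.27 FPKM, and the log10 FDR of its change was -4.4. SPTAN1, alpha-II spectrin of the membrane skeleton, rested on more RNA, with 26.9, 25.7 and 25.5 FPKM and a log10 FDR of -37.6 in the authors' deposited table, for a peak of 450 bases (chr9:128628045-128628494).

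CPNE2, a copine that binds membranes in response to calcium, had the strongest FDR among these high values, at a log2 fold change of 2.35 and a log10 FDR of -76.8 in the authors' deposited table, over 1351 bases of exon 15 of 16 (chr16:57145730-57147080). KDM2B, a histone demethylase that brings Polycomb complexes to CpG islands, rose at both its members, 2.33 over 541 bases of exon 10 and 2.11 over 450 bases of exon 12 in the authors' deposited table. CAPN10-DT followed at 2.08, AC135279 at 1.87, EIF5A, the hypusine-bearing translation factor, at 1.85 and GABPB1-AS1 at 1.73 in the authors' deposited table. EIF5A was well expressed, at 24.3, 23.8 and 26.3 FPKM, and GABPB1-AS1 had 6.96, 7.81 and 6.18 FPKM. CAPN10-DT and GABPB1-AS1 begin beside or run opposite to coding genes, and the labels do not say whether the counting used strand.

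The lowest values in expressed genes began with CILP, a cartilage matrix protein, at -3.36 in the authors' deposited table, but in a gene of 1.52, 1.51 and 1.41 FPKM and with a log10 FDR of -2.07. AL512791 (-3.02), AC024884 (-2.98) and AC025442 (-2.35) of the authors' deposited table were likewise weakly expressed. Better supported were C1orf35, at -2.04 with a log10 FDR of -33.7 over 1138 bases of its first exon (chr1:228103616-228104753), and ZNF767P, at -1.79 with -37 in the authors' deposited table. C1orf35 measured 8.47, 10 and 9.77 FPKM and ZNF767P 4.6, 4.88 and 5.11 FPKM. ZNF845, a zinc finger gene, had -1.86 with -14.5, and C1orf174 -2.06, EIF2AK3-DT -2.04 and GPR179 -1.90 in the authors' deposited table. MYO15B, first in enrichment among genes of at least 5 FPKM, was lower too, at -1.4 with -41.2 in the authors' deposited table.

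The longest members of the authors' deposited table of differences were lower throughout. PLEC had -0.42 over 4256 bases, EP400P1 -0.19 over 3774 and HELZ2 -0.87 over 3594 in the authors' deposited table. KNL1, the scaffold of the outer kinetochore, had -0.42 over 3417 bases, LINC00504 -0.97 over 3297, SAMD9L, an interferon-induced protein and myeloid tumour suppressor, -0.66 over 2993, C22orf46 -0.34 over 2873 and LMTK2 -0.44 over 2847 in the authors' deposited table. Of the abundant RNAs, NORAD had -0.59 with a log10 FDR of -250 and TUBB4B -0.13, while OAZ1 had 0.65 and POLR2A 0.30 in the authors' deposited table.

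Of 668 genes with a changed member, 76 had 2 or more (62 when overlapping blocks are merged). With no like count given here for other peaks, 11 of these genes had members changed in both directions. NEAT1 was among them: a 539-base block at its start rose by a log2 fold change of 0.37 (chr11:65422774-65423312), while the adjoining 1886 bases (chr11:65423432-65425317) had -0.32 and a block further on -0.41 in the authors' deposited table. Each NEAT1 block is listed again with nearly the same limits and value. All 3 had a log10 FDR of -27.4 or below, and the first and the adjoining blocks overlap the same 2514-base peak of the peak list.

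AHNAK went against the lean of the members. Of its 8 differential members 5 were higher, with log2 fold changes of 0.35 to 0.65, 1 was lower at -0.46, and 2 at 0.46 and 0.26 did not pass the FDR in the authors' deposited table. The lower block (600 bases, chr11:62532638-62533237) lies nearest the 5' end of the exon among the 8. PLEC divided by length: its 4256-base block in exon 32 was lower, and blocks of 930 and 571 bases in exon 31 were higher at 0.52 and 0.93 in the authors' deposited table. ASPM, a spindle pole protein, had -0.60 over 1381 bases of exon 18, 0.40 over a neighbouring 991 bases and 0.52 over 420 bases of exon 3 in the authors' deposited table. SPG7, a mitochondrial protease, had 0.98 and -0.39, C22orf46 0.77 and -0.34, and DISP2 0.66 and -1.08, the last at only 0.689 to 0.719 FPKM, by the authors' deposited table. HCG18, in contrast, was lower at all 5 of its members, from -1.20 to -0.91 in the authors' deposited table. These 5 cover 3 regions, since 2 of them lie within longer ones.

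C2H2 zinc finger genes, whose DNA-binding fingers are mostly encoded by 1 long last exon, held 72 peaks in 56 of 560 genes, at a median enrichment of 4.92. Of their 37 differential members 31 were lower (83.8%, against 58.7% of all members) and 1 higher, with a median log2 fold change of -0.71 in the authors' deposited table, beside -0.67 over all members. Neither RNA level nor exon place is matched in these shares. Of the 560 genes 388 reached 1 FPKM, and changed members in last exons of any gene were lower in 92.0% of cases. ZNF687 (-0.77), ZNF852 (-0.99), ZNF574 (-0.97), ZNF473 (-1.03) and ZNF629 (-0.99) had the lowest p in the authors' deposited table, in genes of 7.35 FPKM or more. ZNF609, at 0.21, was the higher one in the authors' deposited table. ZFP69, also a zinc finger gene, is not among the 37, and its member, at 1.26 in the authors' deposited table, did not pass the FDR. Fingers of related genes are alike in sequence, so reads can be shared among them. Protocadherin genes had 8 members at a median of 12.6-fold, but only 1 of 59 of these genes reached 1 FPKM. Of their 5 differential members, which cover 4 regions, 3 were lower in the authors' deposited table (60.0%, near the 58.7% of all members).

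Chromatin regulators held 23 peaks in 15 of 49 genes, at a median of 4.12-fold. Of 15 differential members 13 were lower (86.7%, against 58.7% of all members and 45.8% of all peaks) and 1 higher, with a median log2 fold change of -0.34, against -0.67 over all members, in the authors' deposited table. The shares are not matched for RNA level: 47 of the 49 genes reached 1 FPKM. Over all members, 53.1% changed from 0.1 to 1 FPKM and 92.3% from 5 to 20 FPKM. SRCAP, a remodelling ATPase, is counted 2 times among the 13, from nearly identical blocks, so the lower regions number 12. Those lower included ASXL1 (-0.43), CHD8 (-0.58), the histone H3K4 methyltransferases KMT2D (-0.40) and KMT2A (-0.34), the demethylase KDM6B (-0.37) and the H3K36 methyltransferase SETD2 at both members (-0.62 and -0.33) in the authors' deposited table. ARID1A, a subunit of the BAF remodelling complex, was higher at 0.96 in the authors' deposited table. Among DNA repair genes (8 of 35 genes, 11 peaks) 4 of 6 were lower (66.7%, near the 58.7% of all members): BRCA2 at -0.56 over 661 bases of its giant exon 11, RBBP8 at -0.52, POLQ at -0.39 and RIF1 at -0.13 in the authors' deposited table. BRCA1, at 7.45 FPKM, had no member. Mitosis genes (6 of 27 genes, 16 peaks, median 2.75-fold) had 6 of 9 lower, also 66.7% and near that share, and 2 higher, with MKI67 at -0.67, SGO2, the guardian of centromeric cohesion, at -0.62 and -0.55, CENPF at -0.43 and KNL1 at -0.42 among the lower in the authors' deposited table.

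Large scaffold genes, with 35 peaks in 11 of 26 genes, were divided, with 9 members lower (42.9%), 7 higher (33.3%, against 11.4% of all members) and 5 not called of 21, at a median of -0.37 in the authors' deposited table. AHNAK and PLEC supplied all 7 higher members. AHNAK2 had -1.62 and -1.39, and AKAP13, a kinase anchor protein, -1.01, -0.93 and -0.59 in the authors' deposited table. The first 2 AKAP13 blocks are nearly the same region, so the 9 lower members cover 8 regions. BTB-Kelch genes (8 of 43) had 3 lower and 1 higher of 6, or 50.0% and 16.7%, near the 58.7% and 11.4% of all members. KLHL36 had -0.71 and -0.66 and KLHL8 0.95 in the authors' deposited table. Immediate early genes (3 of 32) had only 4 differential members, 50.0% lower and 50.0% higher. EGR1 (-0.57) and EGR2 (-0.82) were lower in the authors' deposited table. PPP1R15A, the phosphatase subunit that reverses the integrated stress response, was higher at 0.22 and 0.16 in the authors' deposited table. Of m6A machinery genes, PRRC2A and IGF2BP3 (12.1-fold) had members among 22, and PRRC2A was lower at -0.17 in the authors' deposited table. None of 65 replication-dependent histone genes and none of 29 HIF pathway and hypoxia genes had a member. Among all genes with a listed peak and an FPKM, 1926 of 16297 had one, and the absences were not tested.

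**Figure D5:**
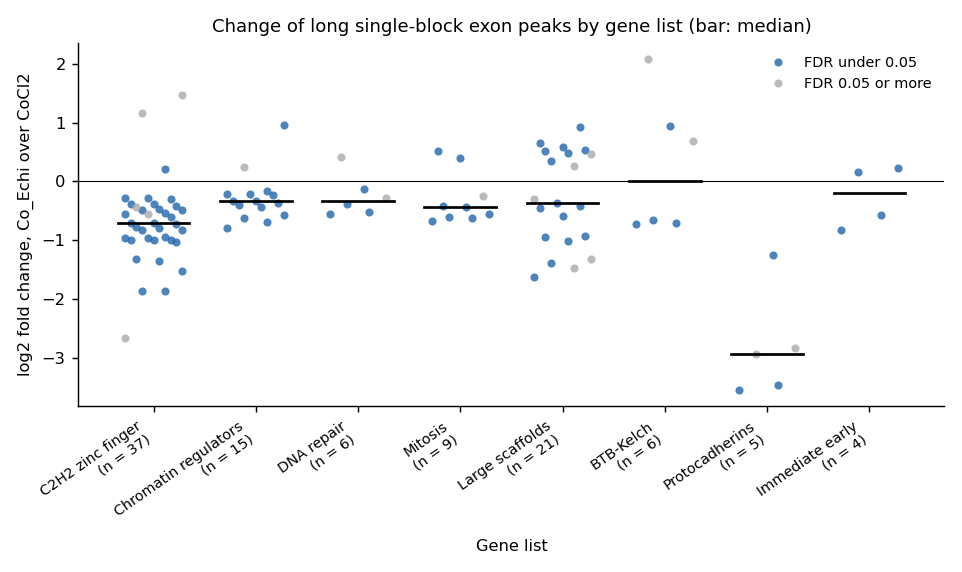
log2 fold change of Co_Echi over CoCl2 in the authors' deposited table for each long single-block exon peak of 8 gene lists, with peaks at an authors' FDR under 0.05 in blue, others in grey and a bar at each list's median. The 37 listed zinc finger members, without ZFP69, lie below 0 but for 3 points, at a median of -0.71, and large scaffold members lie on both sides.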

How the data were processed

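The starting point was the processed tables of m6A pulldown and input libraries from Co_Echi Kasumi-1 cells, with samples grouped by title. The submitters' processing notes name ChIPseeker, fastp, HISAT2 and HOMER without roles or versions. Not given in the sources used here are the peak caller, the build, the annotation and the FPKM tool. For the peak list the authors gave a fold enrichment as a linear ratio, a p-value and log10 FDR per peak, the latter handled as a score because some values lie at minus infinity. The authors' deposited differential table holds a log2 fold change, a p-value and a log10 FDR score per peak. FPKM was deposited by the authors per gene and input library, and 6 other per-sample columns were not used. How replicates were combined is not given, so no value per peak has an error, and the count of reads behind it is unknown.

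Members were taken by annotation class, gene ID, 1 block and 400 bases. The members, gene lists and naming rules were chosen with earlier results of these data known. Named were the 12 highest enrichments in genes of 5 FPKM or more, the longest blocks and those at the limit, the 10 highest and 10 lowest log2 fold changes in genes of 1 FPKM or more, the genes with most members, up to 5 members per list and table, genes changed both ways, and the 5 highest FPKM. Some genes that these rules take are not reported here. Lists were C2H2 zinc finger, protocadherin, histone, BTB-Kelch, chromatin, DNA repair, mitosis, m6A, haematopoietic transcription factor, HIF and hypoxia, immediate early, large scaffold, and other cell type genes. Shares carry exact Clopper-Pearson 95% intervals. On simulated data, the selection, overlap and interval steps were tested. The tools were scipy 1.17.1, pandas 2.3.3 and numpy 2.4.6 under Python 3.11.15, with matplotlib 3.10.9 for figures.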

Additional observations from a re-analysis of the deposited data

How the results depend on the processing

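No paired analysis was possible because the peak tables hold no values per replicate and the results come from no test. The share lower among changed members, 83.8%, stayed above 50% in value under every alternative run, and its size moved with length and RNA level. With a block limit of 300, 600 and 1000 bases the share lower among changed members was 79.7%, 88.5% and 92.8%; at a 2-fold limit it was 88.7% of 291, and with an overlap of at least 1 base or of 50% with a peak-list member it was 80.2% and 80.3%. Chosen after seeing the data, members of 400 to under 600 bases in genes of 1 FPKM or more had 68.0% (60.5 to 74.8), close to the 66.4% over all changed peaks, and members in genes of 20 FPKM or more 60.5% (44.4 to 75.0, n = 43), below that share and with an interval that includes 50%. The count of changed members was 209 at the limit of 1000 bases and 291 at 2-fold. The median log2 fold change was -0.60 at 1000 bases, -0.55 in genes of 1 FPKM or more, and -0.58 and -0.57 with the 2 overlap limits. Median enrichment was 6.52 at 300 bases, 7.75 at 1000 bases and 5.06 in genes of 1 FPKM or more. The share in internal exons was 26.5% at 600 bases, 26.1% at 1000 bases and 17.6% at an enrichment of 5 or more. The median FPKM of member genes was 3.77 when genes under 1 FPKM were left out, by construction, and 0.847 to 0.915 with each input library left out in turn. The causes of the other shifts were not tested. Motif density over whole members and its other spellings were not run, since that needs a genome sequence. Depth is unknown and limits weakly expressed genes most.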

Other observations

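Shares by chromosome lay above those of all listed peaks on some chromosomes and below them on others. Chromosome 1 held 10.1% of the members, against 9.63% of all listed peaks, and chromosome 10 held 4.69% against 3.63%. Chromosome 12 held 3.7% against 5.06%, chromosome 17 held 5.22% against 6.59% and chromosome 19 held 6.66% against 7.66%. The mitochondrial genome held 3 members. MALAT1 had 4 members in the peak list, of 2.1-, 5.15-, 5.18- and 14.9-fold enrichment, and its differential member of 689 bases was higher in Co_Echi than in CoCl2 cells, with a log2 fold change of 0.37 and a log10 FDR of -38.9 in the authors' deposited table. SRRM2, whose 601-base member was enriched 22.8-fold, had 2 further members of 2.94- and 2.08-fold in a following exon, with log2 fold changes of 0.23 and -0.16 in the authors' deposited table. GABPB1-IT1 and GABPB1-AS1, on opposite strands of chromosome 15, had changed members of opposite sign, -1.25 over 1288 bases and 1.73 over 571 bases in the authors' deposited table.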
